A study of Mus musculus with 16 samples.

Results

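Cxcl12, Cxcr4 and Ackr3 encode a secreted chemokine and its pair of receptors, and were taken by gene name from the table of all genes. They are 3 of the 56748 genes listed, and all 3 were among the 17205 genes with enough RNA to be tested. Bulk RNA was sequenced from mouse embryos at E11.5, taking either the trunk or the caudal part of the body. The 16 libraries form 4 groups of 4: Ednrb-/- trunk, WT (Ednrb+/+) trunk, Ednrb-/- caudal and WT caudal. Ednrb-/- embryos lack the endothelin receptor B, a receptor that neural crest derivatives such as melanoblasts and enteric neuron precursors need during migration. The series asks about the surroundings of these cells in mice that develop pigmented spots. The labels do not state the strain, the nature of the Ednrb allele, how many embryos went into a library or where the regions were cut. They call the libraries of a group biological replicates, so p-values measure the spread between such libraries.

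Cxcl12 is secreted mainly by mesenchymal and stromal cells and forms local gradients on heparan sulfate. Cxcr4 is a Gi-coupled receptor that turns this gradient into directed movement of, among others, germ cells, muscle progenitors, endothelial cells, sensory neuron precursors and melanoblasts in mice. Ackr3 is an atypical receptor that recruits arrestins and takes Cxcl12 up into the cell, so that cells carrying it lower the local amount of the ligand.

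On build mm39, the deposited table places Cxcl12 (ENSMUSG00000061353) on the plus strand of chr6:117145496-117158328, Cxcr4 (ENSMUSG00000045382) on the minus strand of chr1:128515936-128520030 and Ackr3 (ENSMUSG00000044337) on the plus strand of chr1:90131702-90144473. All 3 are protein-coding genes, and their values sum reads over each whole gene, with a counted length of 8176 bases for Cxcl12, 1808 for Cxcr4 and 3348 for Ackr3. The 250 bases before each RefSeq start are shown to compare the start regions of the ligand and the receptors, 5′ to 3′ on the gene's own strand. RefSeq's build for these sequences is GRCm38.p6, where they lie at chr6:117168285-117168534 on the plus strand, chr1:128592300-128592549 on the minus strand and chr1:90203730-90203979 on the plus strand. Capitals mark 4 motifs searched on both strands: the TATA box TATAAA, the hypoxia response element core ACGTG or GCGTG, the GC box GGGCGG and the NRF1 palindrome.
Cxcl12: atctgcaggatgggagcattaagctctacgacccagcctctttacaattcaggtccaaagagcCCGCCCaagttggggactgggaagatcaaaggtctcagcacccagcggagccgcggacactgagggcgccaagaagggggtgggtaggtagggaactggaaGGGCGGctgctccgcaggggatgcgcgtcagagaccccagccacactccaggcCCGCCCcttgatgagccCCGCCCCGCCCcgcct
Cxcr4: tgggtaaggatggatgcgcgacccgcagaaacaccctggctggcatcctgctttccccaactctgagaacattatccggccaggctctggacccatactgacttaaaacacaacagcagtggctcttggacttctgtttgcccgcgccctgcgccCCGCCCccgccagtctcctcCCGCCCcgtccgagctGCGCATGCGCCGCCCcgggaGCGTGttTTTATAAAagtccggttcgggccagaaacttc
Ackr3: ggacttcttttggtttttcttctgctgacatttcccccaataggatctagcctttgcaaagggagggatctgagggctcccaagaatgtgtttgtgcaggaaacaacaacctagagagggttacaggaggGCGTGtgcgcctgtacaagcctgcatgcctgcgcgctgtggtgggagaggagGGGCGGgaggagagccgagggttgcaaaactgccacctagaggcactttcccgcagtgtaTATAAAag
The ligand's window held 5 GC boxes, of which the last pair overlap, and no match to the other motifs. The Cxcr4 window held TATAAA 30 bases before the start, overlapped by a match on the other strand, GCGTG 39 bases before it, 3 GC boxes and the NRF1 palindrome, which overlaps a GC box. The Ackr3 window held TATAAA 8 bases before the start, GCGTG 120 bases before it and 1 GC box. Of the 32851 RefSeq promoter windows of this length, 12.4% held TATAAA, 38.6% a hypoxia response element core, 32.7% a GC box and 0.782% the NRF1 palindrome. These matches describe letters only.

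Libraries held between 34883821 and 43444905 reads in listed genes. Ednrb itself averaged 3.98 ± 0.596 FPKM in Ednrb-/- trunk and 38.7 ± 2.79 in WT trunk, and 2.34 ± 0.847 in Ednrb-/- caudal and 30.6 ± 3.17 in WT caudal (SD, n = 4 each). FPKM counts fragments per kilobase of a gene relative to a library total, so levels of different genes within a library can be set side by side. That total was not the sum of listed reads, as described under the processing of the data. The 8 posterior genes used to check the region labels, Hox paralogs of the tail end with Cdx2 and T, were all lower in trunk in both genotypes. Their summed level was 1.76 to 2.42 FPKM in Ednrb-/- trunk and 86.7 to 111 in Ednrb-/- caudal, and 1.44 to 3.35 in WT trunk and 83.0 to 130 in WT caudal. The caudal sums overlapped, yet between caudal genotypes 4 of the 8 rose and 2 fell in Ednrb-/-, 75% against 41.6% of all genes. Hoxd13 averaged 24.8 FPKM in Ednrb-/- caudal and 17.2 in WT caudal, and Hoxc13 9.40 and 20.1. Whether the caudal pieces were alike between genotypes was not tested. In 3 libraries, Ednrb-/- trunk replicate 3, Ednrb-/- caudal replicate 3 and WT caudal replicate 2, Xist of the inactive X and the Y-linked Ddx3y both reached 5 FPKM. Where a call reported here on a named gene changes without these 3 libraries, the value without them is given too.

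The ligand was the most abundant of the 3 members in every library. Cxcl12 was higher in Ednrb-/- trunk than in WT trunk, while no such difference passed the test in the caudal region. Cxcr4 passed the test in no comparison. Ackr3 was higher in trunk than in caudal tissue in both genotypes and did not pass the test between genotypes.

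**Figure D1:**
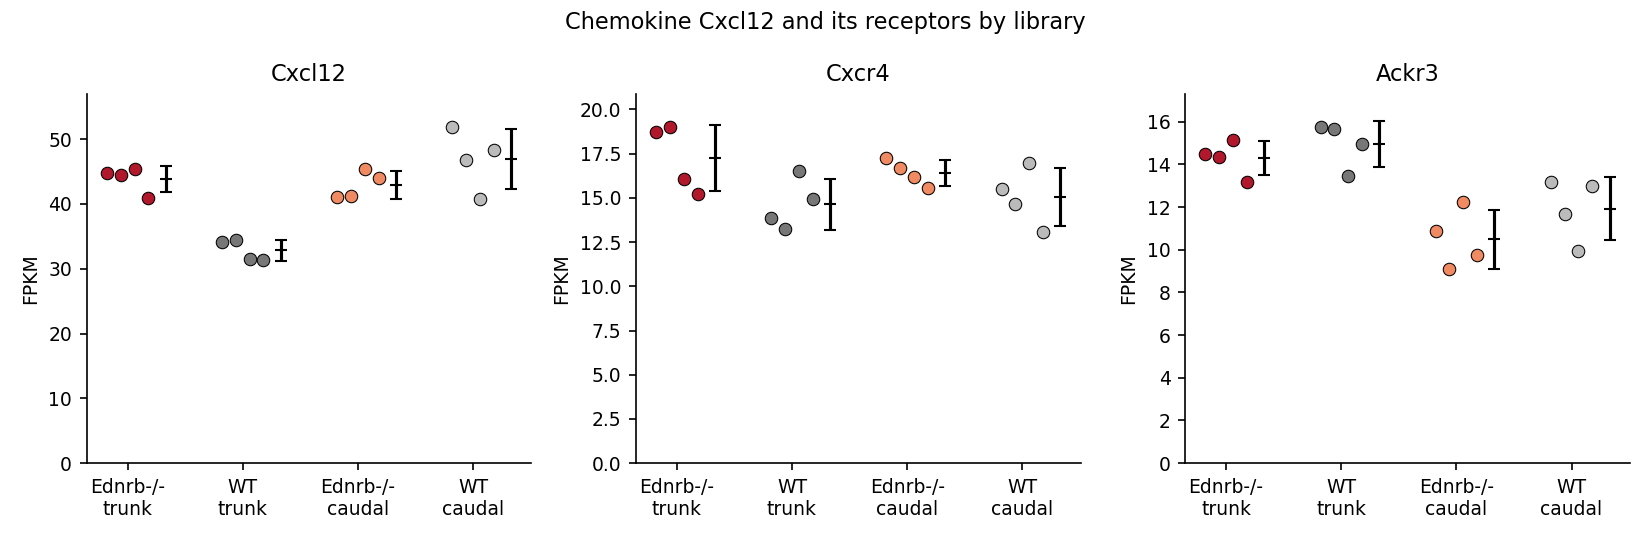
Level of Cxcl12, Cxcr4 and Ackr3 in FPKM (vertical axes, from 0) in the 4 groups of 4 libraries, with replicates 1 to 4 from left to right as points and mean ± SD beside them. The 4 WT trunk libraries of Cxcl12, at 31.4 to 34.4 FPKM, lie below all 12 others. The 8 trunk libraries of Ackr3 lie narrowly above all 8 caudal ones, with 13.2 FPKM the lowest in trunk and 13.1 the highest in caudal tissue.

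Cxcl12 had 44.8, 44.5, 45.3 and 40.9 FPKM in replicates 1 to 4 of Ednrb-/- trunk, against 34.2, 34.4, 31.4 and 31.4 FPKM in WT trunk. It had 41.0, 41.3, 45.4 and 44.0 FPKM in Ednrb-/- caudal, against 51.9, 46.8, 40.8 and 48.3 FPKM in WT caudal. WT trunk was thus the low group and did not overlap any of the other 3, which overlapped each other. How many of all genes separate groups in this way was not counted, here or for the genes below. Group means were 43.9 ± 2.02 FPKM in Ednrb-/- trunk and 32.8 ± 1.66 in WT trunk, and 42.9 ± 2.15 in Ednrb-/- caudal and 46.9 ± 4.60 in WT caudal (SD, n = 4 each). In order of level, WT caudal, Ednrb-/- trunk and Ednrb-/- caudal were neighbours whose ranges overlapped, and WT trunk came last, apart from them.

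In the trunk, Cxcl12 rose in Ednrb-/- libraries by 0.41 ± 0.06 on the log2(FPKM + 0.5) scale (SE), 1.33-fold with a 95% interval of 1.21 to 1.46 (limma, Benjamini-Hochberg adjusted p = 0.00031). It was the 1 member of 3 called there, and 25.1% of all genes tested were called in the trunk (12.2% higher and 13% lower). Of all genes tested, 88.4% changed by less on this scale. In the caudal region the difference was -0.12 ± 0.06 (95% interval -0.26 to 0.01, limma adjusted p = 0.13), and none of the 3 members was called, against 41.6% of all genes (21.7% higher and 19.9% lower). An unadjusted p under 0.05 was reached there by 0 of the 3. This caudal result depended on WT caudal replicate 3, whose Cxcl12 was the lowest of its group. Without it the difference was -0.19 and passed the test (limma adjusted p = 0.011). It also passed, between -0.26 and -0.19, under TPM scaling, quantile normalization, voom on whole reads and scaling to the listed reads' sum. The trunk difference kept its call in all 22 alternatives, between 0.37 and 0.45.

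Between regions, Cxcl12 fell by 0.51 ± 0.06 on the log2 scale in trunk relative to caudal tissue of WT embryos, to 0.705-fold (limma adjusted p = 6.1e-05), where 18% of all genes were called (9.69% higher and 8.35% lower). In Ednrb-/- embryos the same difference was 0.03 (95% interval -0.10 to 0.17, limma adjusted p = 0.73). The genotype difference in trunk minus that in caudal was 0.54 ± 0.09 on the log2 scale (95% interval 0.35 to 0.73, limma adjusted p = 0.0049). Cxcl12 was the 1 member called for that difference of differences, against 6.76% of all genes (3.78% higher and 2.98% lower), and the call held in all 29 alternatives, with adjusted p between 0.00093 and 0.013. The WT trunk libraries enter the trunk genotype difference, the WT regional difference and the interaction, so these 3 results share their low values. In bulk RNA a lower level from fewer cells of a type and from less RNA per cell cannot be told apart.

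Cxcr4 had 18.7, 19.0, 16.1 and 15.2 FPKM in replicates 1 to 4 of Ednrb-/- trunk, against 13.9, 13.3, 16.5 and 14.9 FPKM in WT trunk. It had 17.3, 16.7, 16.2 and 15.5 FPKM in Ednrb-/- caudal, against 15.5, 14.7, 16.9 and 13.1 FPKM in WT caudal. All pairs of groups overlapped, and no group stood apart. Means were 17.3 ± 1.89 FPKM in Ednrb-/- trunk and 14.6 ± 1.43 in WT trunk, and 16.4 ± 0.724 in Ednrb-/- caudal and 15.0 ± 1.63 in WT caudal (SD, n = 4 each). The largest of its differences was the genotype difference in trunk, 0.23 ± 0.09 on the log2 scale (95% interval 0.05 to 0.41, limma adjusted p = 0.063). That value passed the test without Ednrb-/- trunk replicate 4 (0.28, adjusted p = 0.034), without 1 of the WT trunk libraries, replicate 3 (0.29, adjusted p = 0.030), and with array weights (0.24, adjusted p = 0.034). In the caudal region the Cxcr4 difference was 0.13 ± 0.09 (95% interval -0.06 to 0.31, limma adjusted p = 0.26). Between regions it was 0.06 in Ednrb-/- embryos (95% interval -0.12 to 0.25) and -0.04 in WT embryos (95% interval -0.22 to 0.15), and the interaction was 0.10 ± 0.12 (limma adjusted p = 0.67).

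Ackr3 had 14.5, 14.4, 15.1 and 13.2 FPKM in replicates 1 to 4 of Ednrb-/- trunk, against 10.9, 9.11, 12.2 and 9.73 FPKM in Ednrb-/- caudal. It had 15.7, 15.7, 13.4 and 15.0 FPKM in WT trunk, against 13.1, 11.7, 9.93 and 13.0 FPKM in WT caudal. Both trunk groups lay above both caudal groups without overlap, and genotypes overlapped within each region. The gap was narrow, from 13.2 FPKM in Ednrb-/- trunk replicate 4 to 13.1 in WT caudal replicate 1. Means were 14.3 ± 0.808 FPKM in Ednrb-/- trunk and 10.5 ± 1.37 in Ednrb-/- caudal, and 15.0 ± 1.07 in WT trunk and 11.9 ± 1.49 in WT caudal (SD, n = 4 each). In Ednrb-/- embryos Ackr3 was higher in trunk by 0.43 ± 0.09 on the log2 scale, 1.35-fold with a 95% interval of 1.18 to 1.55 (limma adjusted p = 0.0021). It was the 1 member called in that comparison, against 36.2% of all genes (17.3% higher and 18.9% lower), and it held in all 22 alternatives. In WT embryos it was higher in trunk by 0.32 ± 0.09, 1.25-fold (limma adjusted p = 0.026), where 2 of the 3 members were called, Ackr3 higher and Cxcl12 lower, against 18% of all genes (9.69% higher and 8.35% lower). The WT call was lost in 7 of 22 alternatives. Among them were leaving out WT caudal replicate 2 (0.31, adjusted p = 0.064), WT caudal replicate 3 (0.24, 0.084), WT trunk replicate 1 (0.29, 0.065), WT trunk replicate 2 (0.30, 0.067) or WT trunk replicate 4 (0.32, 0.054). Leaving out the 3 libraries with Xist and Ddx3y gave 0.31 (adjusted p = 0.053), and testing without a filter gave 0.32 (adjusted p = 0.055).

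Between genotypes, Ackr3 differed by -0.06 ± 0.09 in trunk (95% interval -0.26 to 0.14, limma adjusted p = 0.67) and by -0.18 ± 0.09 in caudal tissue (95% interval -0.38 to 0.02, limma adjusted p = 0.14). The caudal value passed the test without Ednrb-/- caudal replicate 3 (-0.25, adjusted p = 0.037), without WT caudal replicate 3 (-0.26, adjusted p = 0.026) and under TPM scaling (-0.28, adjusted p = 0.041). Its interaction was 0.12 ± 0.13 (95% interval -0.16 to 0.39, limma adjusted p = 0.65).

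**Figure D2:**
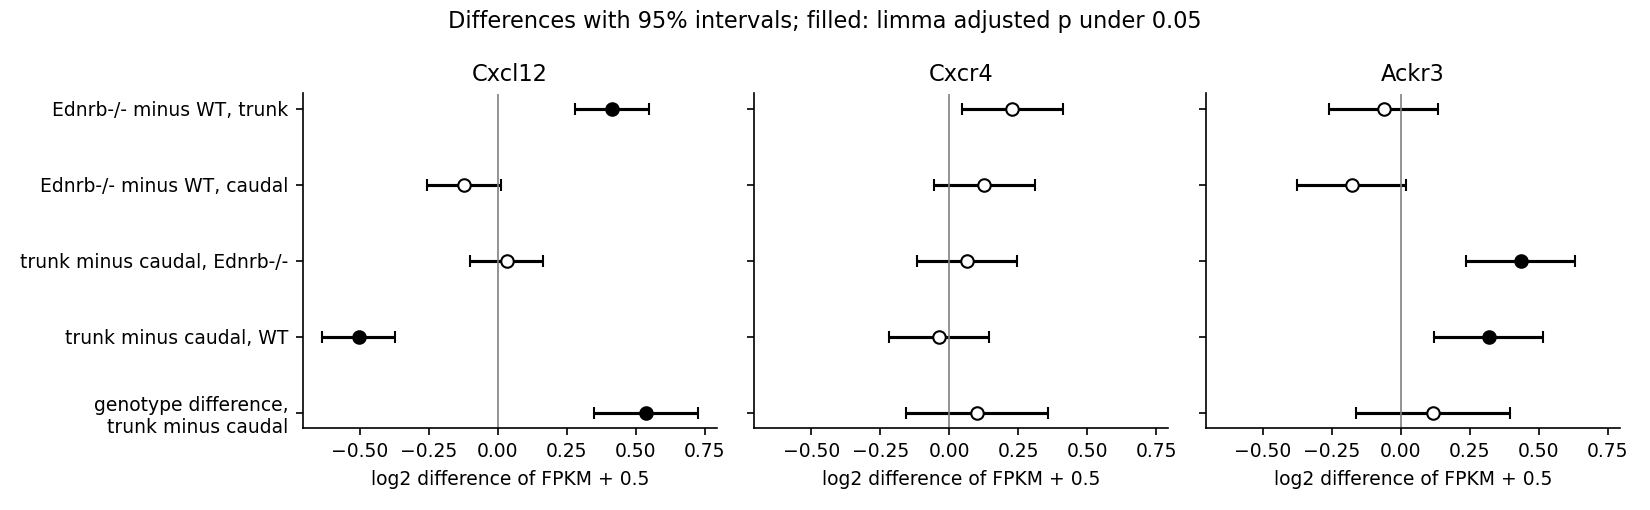
Difference of each member in the 5 comparisons on the log2(FPKM + 0.5) scale, with 95% intervals from the limma fit over all 16 libraries, where filled points mark an adjusted p under 0.05. Cxcl12 is filled for the genotype difference in trunk (0.41), the regional difference in WT (-0.51) and the interaction (0.54), and Ackr3 for the regional difference in Ednrb-/- (0.43) and WT (0.32).

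Since FPKM is per length, the ligand can be set against each receptor within a library, as a description. Cxcl12 over Ackr3 was 3.07 ± 0.0521 in Ednrb-/- trunk and 2.20 ± 0.102 in WT trunk, and 4.13 ± 0.454 in Ednrb-/- caudal and 3.95 ± 0.167 in WT caudal (SD, n = 4 each). The trunk groups did not overlap, at 3.00 to 3.10 in Ednrb-/- and 2.10 to 2.34 in WT, whereas the caudal groups did. Cxcl12 over Cxcr4 averaged 2.56 ± 0.232 in Ednrb-/- trunk and 2.27 ± 0.319 in WT trunk, and 2.62 ± 0.230 in Ednrb-/- caudal and 3.16 ± 0.544 in WT caudal, and the genotypes overlapped within each region. The receptors were near each other in level: Cxcr4 over Ackr3 averaged 1.21 ± 0.123 in Ednrb-/- trunk, 0.988 ± 0.173 in WT trunk, 1.58 ± 0.206 in Ednrb-/- caudal and 1.29 ± 0.299 in WT caudal.

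**Figure D3:**
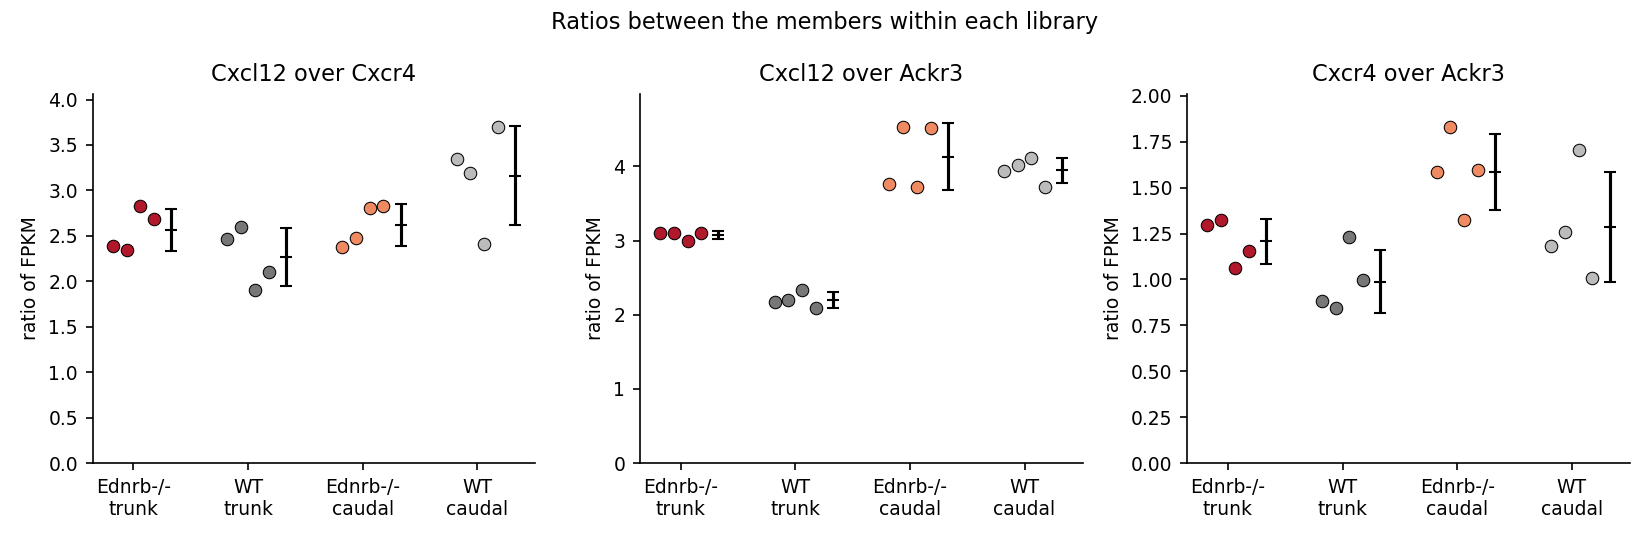
Ratio of FPKM between members within each library (vertical axes, from 0), with points for replicates 1 to 4 from left to right and mean ± SD beside them, n = 4 per group. Cxcl12 over Ackr3 lies at 3.00 to 3.10 in Ednrb-/- trunk and at 2.10 to 2.34 in WT trunk, with both caudal groups higher.

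The other genes of the pathway were counted in a list of 59, of which 54 were tested and Pik3cg, Dock2, Ptk2b, Plcb2 and Cd74 had too little RNA. In the trunk 7 rose and 7 fell in Ednrb-/- libraries, 25.9% of those tested with a median of 0.01 on the log2 scale, and 9 were called without WT trunk replicate 3. In the caudal region 10 rose and 13 fell, 42.6% with a median of -0.01. Both shares were near those of all genes, 25.1% and 41.6%, whose medians were 0.00 and 0.01. For the interaction 4 rose and none fell, 7.41% against 6.76% of all genes, namely Limk1, Foxc1, Ebf1 and Ebf3. That count was 1 to 5 with 1 library left out.

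Among the 9 extracellular partners, 2 rose and 1 fell in the trunk, 33.3% against 25.1% of all genes. In the caudal region 3 rose and 1 fell, 44.4% against 41.6% of all genes. Mif, a cytokine that also binds Cxcr4 and Ackr3, averaged 335 ± 5.53 FPKM in Ednrb-/- trunk and 219 ± 9.73 in WT trunk, and 414 ± 35.6 in Ednrb-/- caudal and 262 ± 13.7 in WT caudal. It rose by 0.62 in trunk (limma adjusted p = 8.8e-06) and 0.66 in caudal tissue (adjusted p = 2e-06). Cxcl14, a chemokine reported to bind Cxcr4, had 12.7, 11.8, 14.4 and 13.6 FPKM in Ednrb-/- trunk, against 32.5, 28.8, 25.0 and 27.1 FPKM in WT trunk. It had 15.7, 9.25, 11.8 and 12.5 FPKM in Ednrb-/- caudal, against 25.7, 30.2, 27.7 and 37.3 FPKM in WT caudal. The genotypes did not overlap in either region, and Cxcl14 fell by 1.08 on the log2 scale in trunk (limma adjusted p = 8.4e-05) and by 1.27 in caudal tissue (adjusted p = 9e-06). Ndst1, an enzyme of heparan sulfate synthesis, rose by 0.16 in both regions (limma adjusted p = 0.015 in trunk and 0.0067 in caudal). Without the 3 libraries holding Xist and Ddx3y the Ndst1 trunk value was 0.14 (adjusted p = 0.063). Sdc4, a heparan sulfate proteoglycan of the cell surface, rose by 0.36 in caudal tissue (adjusted p = 0.0081) and differed by -0.07 in trunk (adjusted p = 0.65).

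Of the 8 receptor kinases, arrestins and other regulators tested, none passed the test in the trunk, where 25.1% of all genes did. In the caudal region 25% of them passed, against 41.6% of all genes. In the caudal region Grk6, a kinase that phosphorylates Cxcr4, rose by 0.19 (limma adjusted p = 0.0083) and Grk3, another receptor kinase, fell by 0.26 (adjusted p = 0.023). Of the 8 Gi subunits, 1 rose and 1 fell in trunk (25%) and 2 of each in caudal tissue (50%), against the same 25.1% and 41.6% of all genes. Gng5 rose by 0.31 in trunk (limma adjusted p = 0.0013) and 0.24 in caudal tissue (adjusted p = 0.0036), and Gng2 fell by 0.52 in caudal tissue (adjusted p = 6.4e-05) with -0.20 in trunk (adjusted p = 0.061, and 0.03 without the 3 libraries). Both encode gamma subunits. The Gng2 interaction was 0.33 (limma adjusted p = 0.073), and 0.45 (adjusted p = 0.013) without the 3 libraries. Of the 21 kinases, GTPases and adhesion proteins tested, 1 rose and 4 fell in trunk, 23.8% against 25.1% of all genes. In caudal tissue 3 rose and 7 fell, 47.6% against 41.6%. Limk1, which phosphorylates cofilin, fell by 0.21 in trunk (limma adjusted p = 0.027) and 0.55 in caudal tissue (adjusted p = 1.9e-05). Elmo1, a partner of Dock proteins in Rac activation, fell by 0.24 (adjusted p = 0.03) and 0.51 (adjusted p = 0.00011) in trunk and caudal tissue. Without the 3 libraries the trunk values were -0.20 for Limk1 (adjusted p = 0.072) and -0.24 for Elmo1 (adjusted p = 0.053), and the Limk1 interaction was 0.36 (adjusted p = 0.069, against 0.33 and 0.043 with all libraries). Stat3 fell by 0.35 (adjusted p = 0.0037) in trunk and 0.43 (adjusted p = 0.00032) in caudal tissue.

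**Figure D4:**
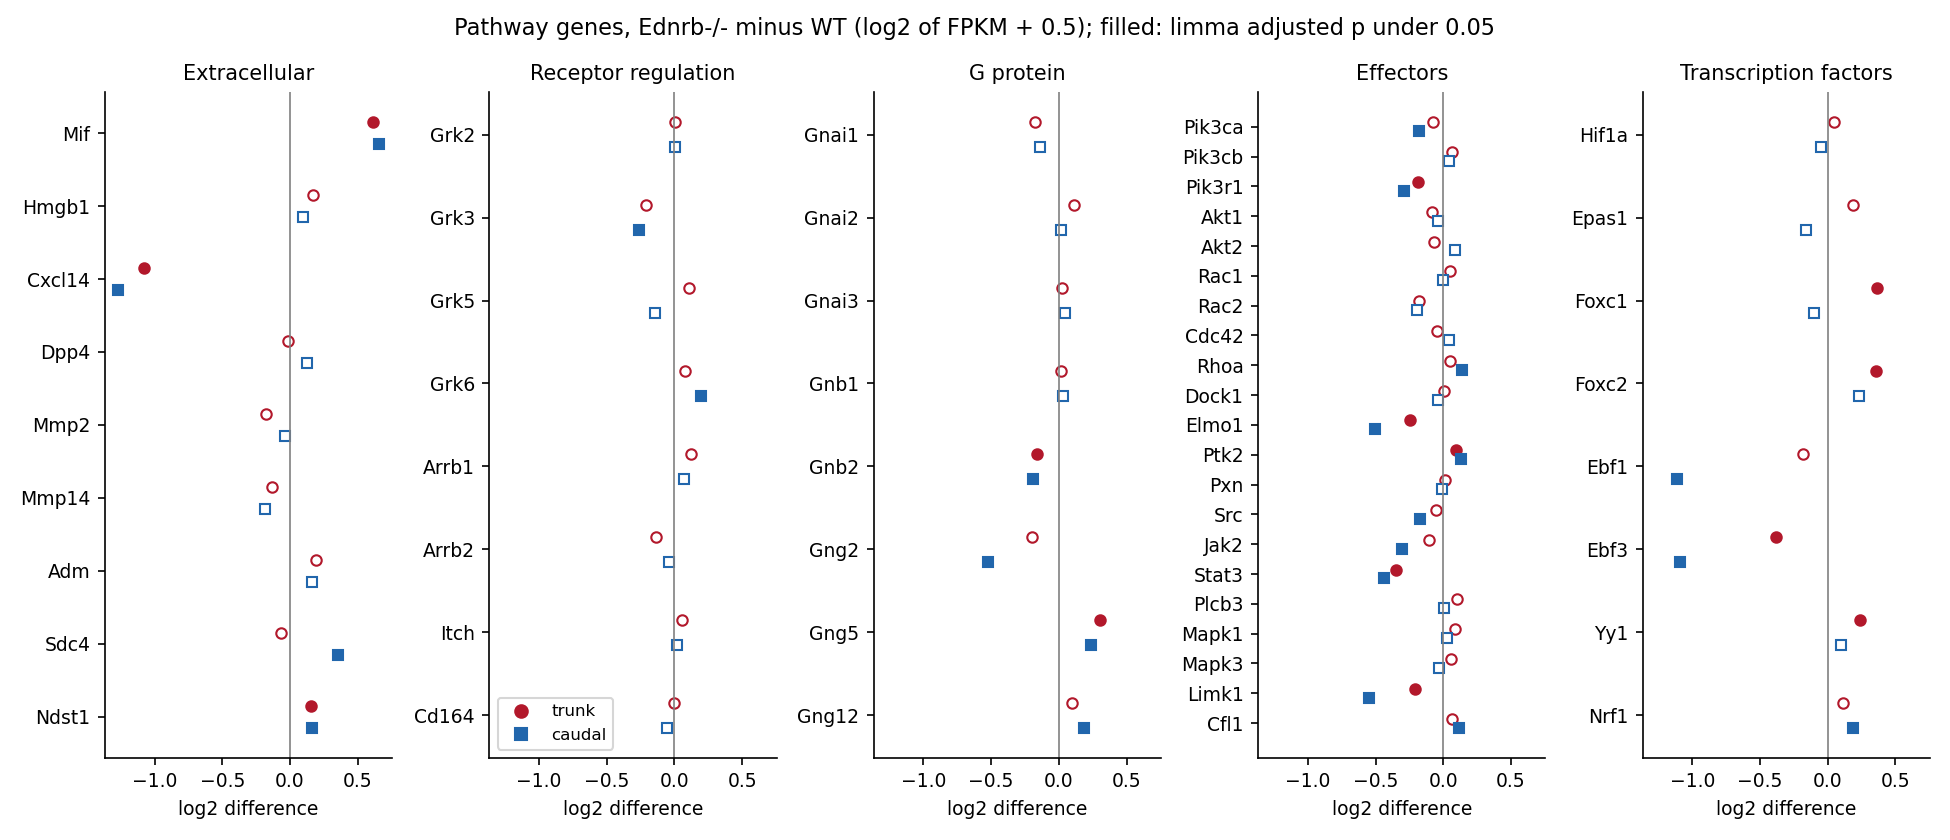
Genotype difference, Ednrb-/- minus WT, of the 54 tested pathway genes on the log2(FPKM + 0.5) scale, with trunk as red circles and caudal as blue squares, and filled where limma's adjusted p was under 0.05. Filled points lie on both sides of 0, with 7 rising and 7 falling in trunk and 10 rising and 13 falling in caudal tissue.

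Of the 8 transcription factors known to act on Cxcl12 or Cxcr4, 3 rose and 1 fell in trunk, 50.0% against 25.1% of all genes. In caudal tissue 1 rose and 2 fell, 37.5% against 41.6% of all genes. Foxc1, which in mouse marrow stroma maintains Cxcl12, had 13.6, 13.5, 14.2 and 13.2 FPKM in Ednrb-/- trunk, against 9.29, 10.3, 10.8 and 11.6 FPKM in WT trunk. It had 14.0, 16.9, 14.4 and 13.6 FPKM in Ednrb-/- caudal, against 16.8, 16.7, 16.2 and 13.6 FPKM in WT caudal. As for Cxcl12, WT trunk had the lowest mean of Foxc1, and also of Foxc2, Yy1, Epas1, Nrf1 and Hif1a of the same list. Ebf1 and Ebf3 had their lowest means in Ednrb-/- caudal. Whether any of these factors acts on Cxcl12 in this tissue was not tested. Foxc1 rose by 0.37 on the log2 scale in trunk (limma adjusted p = 0.0035), which held in all 22 alternatives, and differed by -0.10 in caudal tissue (adjusted p = 0.35), with an interaction of 0.46 (adjusted p = 0.024, and 0.41 with adjusted p = 0.09 without the 3 libraries). Its caudal difference passed the test under TPM scaling (adjusted p = 0.043). Foxc2 rose by 0.36 in trunk (limma adjusted p = 0.014) and differed by 0.23 in caudal tissue (adjusted p = 0.072), which passed in 4 of 22 alternatives, at 0.35 (adjusted p = 0.013) without the 3 libraries. Yy1 rose by 0.24 in trunk (adjusted p = 0.002) and differed by 0.10 in caudal tissue (adjusted p = 0.12). Nrf1 rose by 0.19 in caudal tissue (limma adjusted p = 0.0093) and differed by 0.11 in trunk (adjusted p = 0.13). Ebf1 fell by 1.11 (adjusted p = 1.9e-05) and Ebf3 by 1.09 (adjusted p = 1.2e-05) in caudal tissue, where their means were 4.32 and 7.99 FPKM in Ednrb-/- and 9.79 and 17.6 FPKM in WT. In trunk Ebf3 fell by 0.38 (adjusted p = 0.032), a call lost in 6 of 22 alternatives, and Ebf1 differed by -0.18 (adjusted p = 0.34). Hif1a, the hypoxia factor that acts on both genes, differed by 0.04 in trunk (adjusted p = 0.54) and by -0.05 in caudal tissue (adjusted p = 0.46).

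Most of the remaining chemokine family had little RNA. Of 61 other chemokine and chemokine receptor genes, 10 were at 0 throughout and 45 stayed below 0.5 FPKM in all 16 libraries, and 8 were tested. Cxcl11, the other chemokine ligand of Ackr3, reached at most 0.030 FPKM. In trunk 1 of the 8 rose and 4 fell in Ednrb-/- libraries, 62.5% against 25.1% of all genes. In caudal tissue none rose and 3 fell, 37.5% against 41.6% of all genes, and Cxcl14 fell in both. Ccl27a fell by 0.47 in trunk (limma adjusted p = 0.0012), with means of 4.65 FPKM in Ednrb-/- and 6.63 FPKM in WT. In caudal tissue Ccl27a differed by -0.20 (adjusted p = 0.076), and by -0.29 (adjusted p = 0.022) without the 3 libraries. Ackr1, an atypical receptor of venules and erythroid cells, fell by 0.94 in caudal tissue (adjusted p = 0.0011), with means of 1.43 FPKM in Ednrb-/- and 3.12 FPKM in WT. Cx3cr1, a receptor of macrophages, fell by 0.33 in trunk (adjusted p = 0.021) and 0.26 in caudal tissue (adjusted p = 0.038), calls lost in 6 and 9 of 22 alternatives. Without the 3 libraries the Cx3cr1 values were -0.28 in trunk (adjusted p = 0.087) and -0.26 in caudal tissue (adjusted p = 0.0998). In trunk Cxcl13 fell by 0.82 (adjusted p = 0.019, lost in 5 of 22) and Ccl25 rose by 0.22 (adjusted p = 0.034, lost in 12 of 22), with 0.23 (adjusted p = 0.069) without the 3 libraries.

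**Figure D5:**
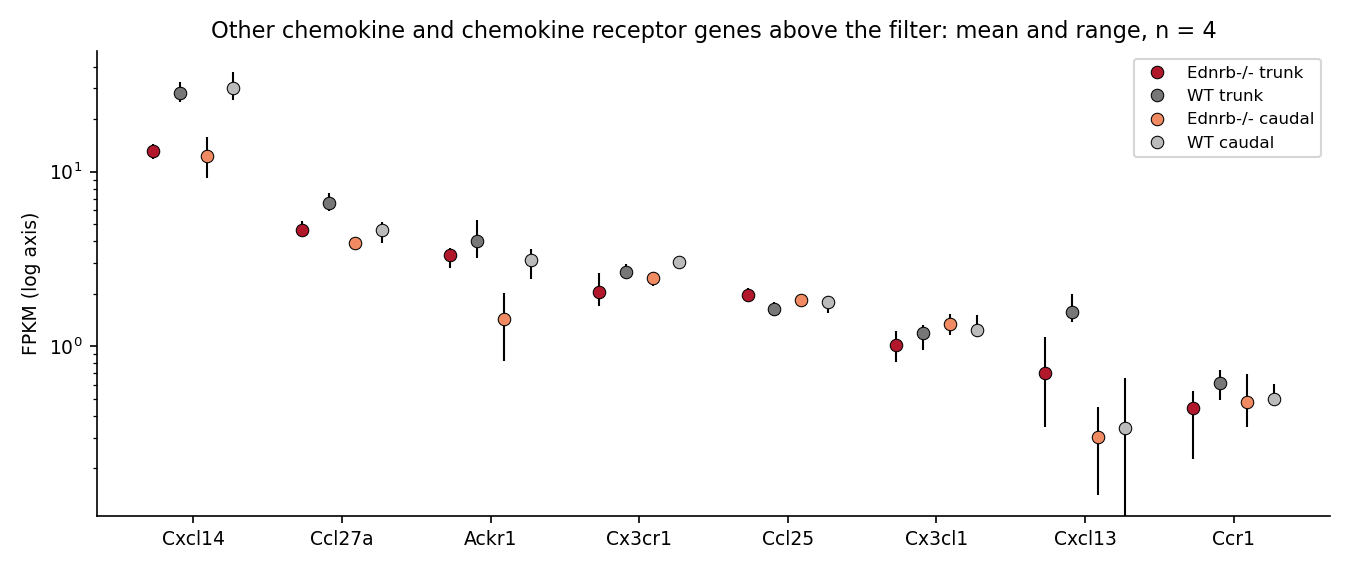
Levels of the 8 other chemokine and chemokine receptor genes tested, in FPKM on a logarithmic axis, with points for the mean and lines for the range of 4 libraries per group. Cxcl14 is the highest of the 8, at 11.8 to 14.4 FPKM in Ednrb-/- trunk and 25.0 to 32.5 in WT trunk, and the lowest WT caudal library of Cxcl13 is at 0, off the axis.

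Marker lists of cell types that such tissue can hold were counted beside these results, and 25.1% of all genes were called between the trunk groups. Of 8 mesenchyme markers, 4 fell and none rose in Ednrb-/- trunk, where their summed level was 256 to 283 FPKM, against 318 to 384 in WT trunk. Means of Col3a1, Col1a2, Col1a1, Pdgfra, Prrx1 and Twist2 were lower in Ednrb-/- trunk than in WT trunk, and those of Twist1 and Pdgfrb were higher. Col3a1 averaged 80.3 FPKM in Ednrb-/- trunk and 121 in WT trunk, and Twist1 67.0 and 61.1. Of 8 endothelial markers 3 rose and none fell, with sums of 69.3 to 72.5 FPKM in Ednrb-/- trunk and 59.4 to 70.4 in WT trunk, and of 9 arterial and tip cell markers 2 rose, with 48.8 to 50.0 FPKM in Ednrb-/- trunk and 46.5 to 49.7 in WT trunk. The 5 neural crest and glia markers, 4 of them lower, summed to 24.9 to 27.1 FPKM in Ednrb-/- trunk and 31.6 to 35.8 in WT trunk. Of 7 macrophage markers 5 fell, with 10.8 to 13.8 FPKM in Ednrb-/- trunk and 16.5 to 22.4 in WT trunk. The 3 of 6 melanoblast markers with enough RNA all fell, and the whole list summed to 0.772 to 0.892 FPKM in Ednrb-/- trunk and 1.47 to 2.32 in WT trunk, with Tyrp1 at 0 in both. Dct reached the filter's 0.5 FPKM only in WT libraries, with at most 0.371 in Ednrb-/- caudal and 0.285 in Ednrb-/- trunk. It was thus tested through groups where it was high, so the melanoblast counts are a description only, here and in the other comparisons. Of 5 muscle progenitor markers 1 rose and 1 fell, with sums of 26.4 to 29.1 FPKM in Ednrb-/- trunk and 20.4 to 25.1 in WT trunk. Means of Myf5 (8.28 and 3.17), Pax3 and Met were higher in Ednrb-/- trunk than in WT trunk, and those of Lbx1 (1.78 and 4.32) and Pax7 were lower. Of 5 motor neuron markers 1 rose, with 32.6 to 34.1 FPKM in Ednrb-/- trunk and 24.8 to 33.1 in WT trunk, and of 5 sensory neuron markers tested 1 fell, with 21.4 to 24.1 and 22.1 to 28.2 FPKM in those groups. Of 5 erythroid markers 2 fell, with 2651 to 2998 FPKM in Ednrb-/- trunk and 3790 to 5031 in WT trunk. Hbb-y led these sums, with means of 2088 and 3470 FPKM, while Klf1 averaged 2.18 and 1.94. None of the 3 germ cell markers tested passed the test, with 2.94 to 3.92 FPKM in Ednrb-/- trunk and 2.78 to 4.04 in WT trunk.

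In the caudal region, where 41.6% of all genes were called, mesenchyme markers fell in 3 of 8 and rose in none, with 217 to 241 FPKM in Ednrb-/- and 239 to 321 in WT, and endothelial markers rose in 6 of 8, with 88.3 to 92.5 FPKM in Ednrb-/- and 73.8 to 77.0 in WT. Mesenchyme means of Col3a1, Col1a2, Col1a1, Twist2 and Prrx1 were lower in Ednrb-/- caudal than in WT caudal, and those of Pdgfra, Pdgfrb and Twist1 were higher. All 5 neural crest and glia markers fell, with sums of 20.5 to 23.4 FPKM in Ednrb-/- caudal and 32.9 to 38.2 in WT caudal. Of 7 macrophage markers 6 fell, with 10.4 to 15.0 FPKM in Ednrb-/- caudal and 19.6 to 24.3 in WT caudal. The 3 melanoblast markers tested fell, with whole-list sums of 1.24 to 1.99 FPKM in Ednrb-/- caudal and 6.46 to 7.16 in WT caudal. Of 5 sensory neuron markers tested 4 fell, with 11.0 to 18.7 FPKM in Ednrb-/- caudal and 22.4 to 28.9 in WT caudal. Of the rest, 4 of 9 arterial and tip cell markers rose and 1 fell, 1 of 5 muscle progenitor markers rose and 2 fell, 1 of 5 motor neuron markers rose and 2 fell, 2 of 5 erythroid markers fell, and none of 3 germ cell markers passed the test.

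Between regions, where Ackr3 was higher in trunk in both genotypes, lists moved in both directions. Of all genes tested, 36.2% were called between regions in Ednrb-/- embryos and 18% in WT embryos. In Ednrb-/- trunk relative to Ednrb-/- caudal, 3 of 8 mesenchyme markers were higher and 1 lower, 8 of 8 endothelial markers were lower, 1 of 9 arterial and tip cell markers was higher and 3 lower, 3 of 5 neural crest and glia markers were higher, 3 of 5 sensory neuron markers were higher, and 2 of 3 melanoblast markers were lower. There, 2 of 5 muscle progenitor markers were higher and 1 lower, 2 of 5 motor neuron markers were higher and 1 lower, and 1 of 7 macrophage markers was higher. In WT trunk relative to WT caudal, 4 of 8 mesenchyme markers were higher, 4 of 8 endothelial markers were lower, 1 of 9 arterial and tip cell markers was higher and 1 lower, 2 of 5 neural crest and glia markers were higher and 1 lower, 1 of 5 sensory neuron markers was higher, and 3 of 3 melanoblast markers were lower. There, 2 of 5 muscle progenitor markers were higher and 3 lower, 2 of 5 motor neuron markers were lower, and 1 of 7 macrophage markers was higher. Erythroid and germ cell markers passed the test in neither genotype. The part of these cell types in the levels of Cxcl12, Cxcr4 and Ackr3 was not tested.

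Across the 16 libraries the protein-coding genes with the pattern most like each member were ranked by Pearson's r on the log2 scale among 13277, as a description, since these libraries share their 4 groups. For Cxcl12 they were Dach2 (r = 0.94), Ptpru (0.87), Shisa3 (0.85), Nkd2 (0.85) and Rgl1 (0.84). Dach2 averaged 1.35 FPKM in Ednrb-/- trunk and 1.03 in WT trunk, and 1.30 in Ednrb-/- caudal and 1.49 in WT caudal, in the same order of groups as Cxcl12. For Ackr3 they were Ppp2r3a (0.95), Loxl1 (0.94), Rsrp1 (0.94), Ccn4 (0.94) and Fap (0.94). Loxl1, a collagen and elastin crosslinking enzyme, averaged 5.98 FPKM in Ednrb-/- trunk and 2.16 in Ednrb-/- caudal, and 8.27 in WT trunk and 3.43 in WT caudal. For Cxcr4 they were Socs4 (0.89), D030056L22Rik (0.87), Yae1d1 (0.84), G2e3 (0.84) and Tigar (0.83). Between members r was 0.19 for Cxcl12 and Cxcr4, -0.30 for Cxcl12 and Ackr3 and -0.24 for Cxcr4 and Ackr3.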

How the data were processed

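Per the labels' protocols, TRIzol total RNA went into standard Illumina libraries. The submitters' processing notes name fastp without a version, HISAT2 2.0.5, featureCounts 1.5.0-p3 and build mm39. The annotation release, strand setting and handling of multi-mapped reads were not given in the sources used here. The deposited values were FPKM, 1 column for each library in a single table, per the file headers. Multiplied by gene length and divided by 1 step per library, the deposited FPKM gave whole reads for 100% of values within 0.01, and these reads gave the depth. The total behind the FPKM lay below the listed reads in Ednrb-/- caudal libraries (35337781 against 37251226 in replicate 2). In WT caudal libraries it lay above them (36820254 against 35579221 in replicate 4). Scaled to the listed reads' sum, the all-gene median of the caudal genotype difference was -0.051, against 0.0068 in the main fit. At this depth the spread between libraries limits precision more than counting error for the 3 members.

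Titles gave each library's genotype and region. Genes reaching 0.5 FPKM in 4 or more libraries entered a limma fit of log2(FPKM + 0.5) on the 4 groups, with a trended prior, 1 spread shared by all 16 libraries and Benjamini-Hochberg adjustment over all genes tested. Calls had an adjusted p under 0.05. The pseudocount makes folds of low genes too small. Lists were described by counts and medians with no set test. Named genes were the members, up to 4 called genes per pathway list and genotype comparison by size of change, every other chemokine gene called, and the 5 genes most like each member. Gnb2, Gng12, Jak2 and Pik3r1 also met that rule but were not described. Hif1a, Epas1 and Cxcl11 were named outside the rule, with their values seen. A gene of the pathway list is not reported here and was left out of its counts. The members and lists were chosen with earlier results of these data known.

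The replicate numbers were checked for pairing: deviations of same-numbered libraries correlated at -0.084 to 0.11, so the numbers were not treated as pairs. Within groups, libraries differed beyond sampling noise (chi-square per degree of freedom 5.80 to 17.8), so none was the same library deposited again. Libraries from the same RNA can also differ by more than this noise. The procedure was tested on simulated data. Alternatives were pseudocounts of 0.1 and 1, no filter or one at 1 FPKM, scaling by quantiles, TPM or median of ratios, fitting only the groups compared, the replicate block, array weights, voom on whole reads, a sex term, leaving out the 3 libraries with Xist and Ddx3y, and leaving out each library. The sex term marked libraries with Xist at 5 FPKM or more: 1 in Ednrb-/- caudal and 2 in each of the other groups. It counted the 3 libraries that also held Ddx3y among them, so it was not a clean adjustment for sex. Scaling to the listed reads' sum was added after seeing the data. R 4.3.3, limma 3.58.1, Python 3.11.15 and matplotlib 3.10.9 were used.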

Additional observations from a re-analysis of the deposited data

Results flagged for a closer look

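Cxcl12 was picked out because its genotype difference differed between the regions. The difference in trunk minus that in caudal tissue was 0.54 on the log2(FPKM + 0.5) scale (limma, Benjamini-Hochberg adjusted p = 0.0049), from 0.41 in trunk and -0.12 in caudal tissue. All 4 Ednrb-/- trunk libraries lay above all 4 WT trunk libraries, and the caudal genotypes overlapped. How many of all genes separate in this way was not counted. Without the 3 libraries holding Xist and Ddx3y the difference in trunk minus that in caudal tissue was 0.55 (limma adjusted p = 0.012). No library passed Dixon's critical value of 0.829 within any of the 12 sets of 4 values of the members. With 4 values that test can flag little. Cxcl12 in Ednrb-/- trunk replicate 4, at 40.9 FPKM, lay below the 44.5 to 45.3 of its group.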

How the results depend on the processing

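Of 351 values of the members under alternatives, 331 kept direction and side of the threshold. Cxcl12 in the caudal genotype comparison passed under TPM scaling (-0.23), quantile normalization (-0.26), voom on whole reads (-0.19) and scaling to the listed reads' sum (-0.19), and ranged from -0.19 to -0.074 with 1 library left out. Ackr3 there was -0.28 under TPM scaling and -0.26 to -0.12 with 1 library left out. Cxcr4 in trunk was 0.24 with array weights and 0.18 to 0.29 with 1 left out. Cxcr4 between regions in WT ranged from -0.10 to 0.021, changing sign without WT caudal replicate 3 (0.021) or WT trunk replicate 2 (0.0077), neither passing. Ackr3 between regions in WT was 0.32 without a filter, 0.31 without the 3 libraries with Xist and Ddx3y, and 0.24 to 0.37 with 1 left out. The cause was not tested.

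Counts moved too. Other chemokine genes called in the trunk genotype comparison were 5, and 3 with only the groups compared, 3 without the 3 libraries, and 3 to 4 with 1 left out. Between regions in Ednrb-/- 1 was called, and 2 with a pseudocount of 0.1, no filter, TPM or median-of-ratios scaling, only the groups compared, without the 3 libraries or with the listed total, 3 with quantile normalization, the replicate block or array weights, and 1 to 3 with 1 left out. Between regions in WT, 3103 genes and 14 pathway genes were called, against 1912 and 9 without the 3 libraries, and 9 to 15 pathway genes with 1 left out. For the interaction, 1163 genes and 4 pathway genes were called, against 571 and 1 without a filter, 7 pathway genes with TPM scaling or voom, and 585 to 1488 genes and 1 to 5 pathway genes with 1 left out. Pathway genes called in the trunk genotype comparison were 14, and 9 to 13 with 1 left out.

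TPM scaling moved the share of higher calls to 30.7% in the caudal genotype comparison (main 52.1%), 66.9% between regions in Ednrb-/- (47.8%) and 79.1% for the interaction (55.9%). Under voom the share was 37.0% in caudal tissue and 36.8% in trunk (main 48.4%). With the replicate block the Cxcl12 trunk difference was 0.41 (limma adjusted p = 0.0011) and its interaction 0.54 (0.0089), and no call of a member changed.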
